A study of Mus musculus with 22 samples.

Results

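The non-classical MHC class I genes followed here were H2-T23, H2-T22, H2-T10, H2-T24, H2-Q4, H2-Q6, H2-Q7, H2-M3, Cd1d1 and Mr1. They were chosen by name, and make up 10 of the 46882 genes listed in a table of 16 mouse libraries, of which 29396 had a read in at least 1 library. The libraries hold RNA of MC38 cells, a transplantable mouse colon carcinoma line of C57BL/6 origin (2 libraries, labelled C57BL/6N, day 0), of skin from C57BL/6N wild-type mice (2 libraries, day 23), and of subcutaneous MC38 tumors. The tumors grew in C57BL/6N wild-type mice until day 23 or day 46 and in RAG1-/- mice of the strain B6.129S7-Rag1tm1Mom/J until day 13 or day 23, with 3 libraries per host and day, and the mice were 8 to 12 weeks old. RAG1-/- mice lack mature T and B cells in every tissue and keep NK and myeloid cells. Every tumor came from the same cell line. According to the study's methods, tumors were cut at random into pieces for DNA, RNA or flow cytometry, so a library reads a piece and not the whole tumor. Cancer cells and host cells of the piece are read together, and fewer cells of a type cannot be told apart from less RNA per cell. Because the hosts share only day 23, the comparison over both days of each host sets days 23 and 46 against days 13 and 23.

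Classical class I molecules (H2-K1 and H2-D1 here) carry peptides to CD8 T cells and vary widely between individuals. The non-classical ones pair with beta-2-microglobulin too, but vary little and show special cargo to special receptors. H2-T23 encodes Qa-1, which presents leader peptides of other class I molecules to the CD94-NKG2A receptor of NK and CD8 T cells, and H2-Q6 and H2-Q7 encode Qa-2 molecules. H2-T22 and H2-T10 are bound by a set of gamma delta T cell receptors, H2-M3 presents formylated bacterial and mitochondrial peptides, Cd1d1 presents lipids to NKT cells, and Mr1 presents vitamin B metabolites to MAIT cells. Many class I genes are driven by interferon gamma and by the transactivator NLRC5.

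In the GENCODE annotation of GRCm38 (the mm10 build), 8 of the 10 genes lie on chromosome 17. H2-Q4 spans chr17:35379617-35385290, H2-Q6 spans chr17:35424850-35430055 and H2-Q7 spans chr17:35439155-35443773, all on the plus strand. H2-T24 spans chr17:36005695-36020560, H2-T23 spans chr17:36029773-36032855, H2-T22 spans chr17:36037128-36042747 and H2-T10 spans chr17:36115876-36121465, all on the minus strand. H2-M3 lies on the plus strand at chr17:37270220-37274484, Cd1d1 on the minus strand at chr3:86995834-86999441 and Mr1 on the minus strand at chr1:155127277-155146814. H2-T10 is annotated as a polymorphic pseudogene and the other 9 as protein coding.

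The start regions of 5 members are shown because a motif match lies before the start site in each of them. RefSeq promoter windows of GRCm38.p6 were given for 7 of the 10 members, and H2-T10, H2-T24 and Cd1d1 had none. In all, 4 motifs were searched on both strands in the 300 bases from 250 before to 50 after each start site: an ISRE-like motif (GAAA, any 2 bases, GAAA), a GAS motif (TTCNNNGAA), an X2 box (TGACGC) and a kappaB-like motif (GGGGATTCC). They occur in 3.44%, 8.3%, 7.4% and 0.25% of all 32851 windows. The 250 bases before the start site follow, 5' to 3' on the gene's strand, with matches in capitals. H2-T22 (chr17:36042743-36042992, minus) and H2-T23 (chr17:36032702-36032951, minus) hold an ISRE-like match, H2-Q6 (chr17:35424600-35424849, plus) and H2-Q7 (chr17:35438905-35439154, plus) a kappaB-like match, and H2-M3 (chr17:37269984-37270233, plus) a GAS match and an X2 box match.
H2-T22: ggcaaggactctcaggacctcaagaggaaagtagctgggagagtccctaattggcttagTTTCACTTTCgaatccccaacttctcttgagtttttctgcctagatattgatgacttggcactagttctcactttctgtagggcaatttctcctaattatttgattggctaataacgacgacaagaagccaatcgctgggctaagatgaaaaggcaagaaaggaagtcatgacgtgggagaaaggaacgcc
H2-T23: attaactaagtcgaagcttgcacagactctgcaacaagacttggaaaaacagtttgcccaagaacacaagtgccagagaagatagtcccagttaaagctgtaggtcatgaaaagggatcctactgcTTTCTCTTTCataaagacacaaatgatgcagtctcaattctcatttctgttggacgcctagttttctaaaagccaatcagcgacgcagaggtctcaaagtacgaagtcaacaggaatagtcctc
H2-Q6: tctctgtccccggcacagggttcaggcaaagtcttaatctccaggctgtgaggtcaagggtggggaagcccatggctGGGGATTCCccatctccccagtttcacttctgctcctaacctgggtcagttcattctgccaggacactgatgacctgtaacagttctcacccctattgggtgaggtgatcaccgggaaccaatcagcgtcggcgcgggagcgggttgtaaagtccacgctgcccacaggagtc
H2-Q7: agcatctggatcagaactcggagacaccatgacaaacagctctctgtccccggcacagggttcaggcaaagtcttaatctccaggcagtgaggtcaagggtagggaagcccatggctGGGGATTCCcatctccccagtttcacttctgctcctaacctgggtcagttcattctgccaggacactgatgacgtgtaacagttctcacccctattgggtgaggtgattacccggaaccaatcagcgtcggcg
H2-M3: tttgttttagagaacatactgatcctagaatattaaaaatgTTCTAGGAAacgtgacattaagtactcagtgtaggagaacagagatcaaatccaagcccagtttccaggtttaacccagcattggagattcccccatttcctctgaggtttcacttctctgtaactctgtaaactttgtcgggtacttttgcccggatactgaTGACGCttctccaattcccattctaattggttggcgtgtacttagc
The matches begin 191 bases before the start site in H2-T22, 124 in H2-T23, 173 in H2-Q6 and 133 in H2-Q7. In H2-M3 the GAS match begins 209 and the X2 box match 46 bases before it. No matches overlapped in these windows. H2-Q6 and H2-Q7 share a run of 66 identical bases here, and 41.6% of the 20-base windows of H2-Q6 occur in H2-Q7. Of the other members, H2-Q4 has an X2 box match 31 bases after its start site, and these letters were not in the Mr1 window. The partners showed the same motifs, with an ISRE-like match in B2m and both a kappaB-like and an X2 box match in H2-K1 and H2-D1. A match is a description of letters and not evidence of binding.

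Reads of near-identical copies limit what can be said of some members. The libraries are 3' tags, and the authors kept only the primary alignment of a read that fits several places. Every 50-letter word of the last 500 bases of each annotated transcript was looked up in the transcripts of all other genes. For H2-T22 58.9% of these words also occur in H2-T10, and for H2-T10 59.4% occur in H2-T22 (21.1% and 21.2% with 100-letter words). H2-Q6 has 2 transcripts. In its 981-base transcript 47.9% of the words occur in H2-Q7, whereas the end of its 2085-base transcript shares none with H2-Q7. Of the words of H2-Q7, 11.8% occur elsewhere, mainly in H2-Q5. For H2-T23 and H2-Q4 38.1% and 33.7% of the words occur in other genes, among them Rab33b and Hook2 for H2-T23 and Gm43321 for H2-Q4. H2-T24 shared 4.66%, while H2-M3, Cd1d1 and Mr1 shared none. Over both transcripts of H2-Q6, 42.9% of the words occur in other genes. Besides H2-Q7 these include H2-Q4 (11.6%), H2-Q1 (10.1%), H2-D1 (9.42%) and H2-K1 (5.1%). Levels of H2-T22 against H2-T10 and of H2-Q6 against H2-Q7 are therefore uncertain, and their sums were tested too. The sums do not cover words shared with further genes, and the part of such reads was not tested. H2-Q8, H2-Q9 and H2-T9, further members of the same families, were not analysed here. On the opposite strand, A930015D03Rik overlaps 39.0% of the last 500 bases of H2-T22 and BC023719 35.8% of those of H2-T10. Their own levels were 4.75 to 57.6 and 0 to 1.33 normalized counts, at most 5.71% and 1.69% of the member in the same library.

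Libraries held 5589151 to 26134241 reads on genes, and 3 reads, taken as the floor, stood at 1.33 to 6.38 normalized counts. Floors and read shares cover counting error only. The labels were checked before the members were compared. Rag1 itself had 23 reads over the 6 libraries labelled RAG1-/- and 1 read over the 6 wild-type tumors, which goes against the labels, but 3' tags may lie outside the deleted part. Trac, the T cell receptor alpha constant gene, was at 0 in the 6 tumors labelled RAG1-/- and at 5.02 to 51.8 in the wild-type tumors. MC38 cells had none of the T cell markers, and of the 7 colon epithelial markers Krt18, Krt20 and Cdx2 were at 0 and the summed level was 4.28 to 7.82 normalized counts. Wild-type day 23 replicate 2 carried keratinocyte genes, with a summed level of 1621 against 227 to 479 in the other tumors. The 3 muscle markers summed to 227 to 6362 in tumors labelled RAG1-/- of day 13, 16.3 to 53.7 in those of day 23 and 11.1 to 779.8 in wild-type tumors. The part of either in the results was not tested, and the ranges of the counts with each library left out are given below. The tumors are called by their labels throughout.

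**Figure D1:**
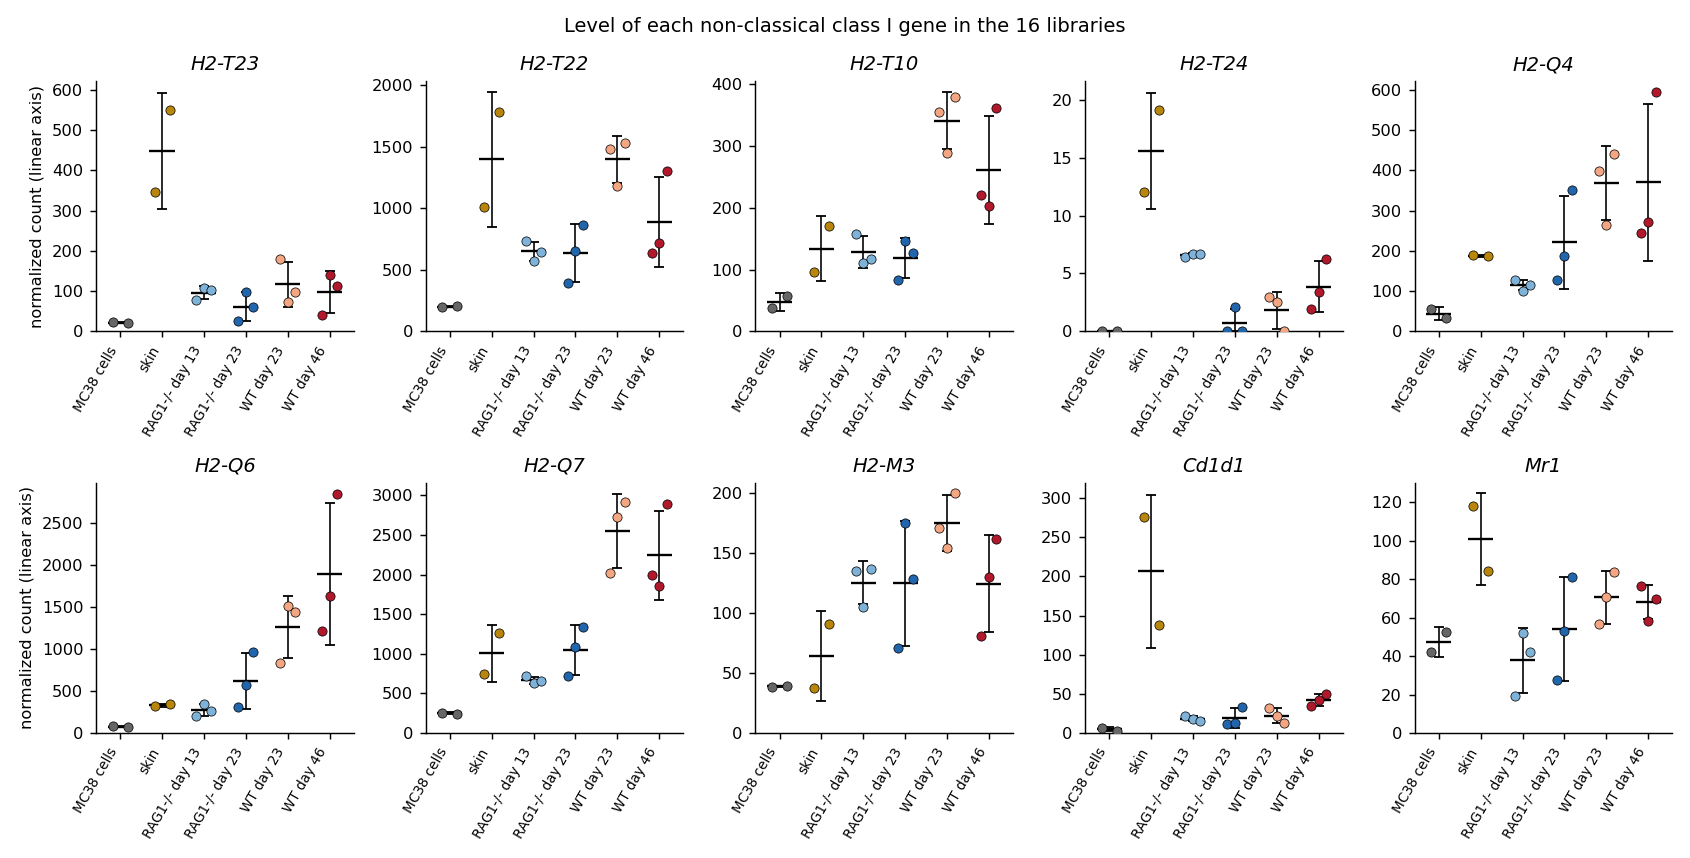
Normalized counts (linear axis, from 0) of each non-classical class I gene in MC38 cells, skin, tumors labelled RAG1-/- (days 13 and 23) and wild-type (WT) tumors (days 23 and 46). Points are single libraries, horizontal bars are group means and whiskers are 1 SD. H2-T10 and H2-Q7 are higher in each of the 6 wild-type tumors than in any tumor labelled RAG1-/-, and Cd1d1 and H2-T23 are highest in skin.

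The first question was whether tumors grown with T and B cells carried more of these transcripts than tumors grown without them. Over both days, 4 of the 9 members tested were higher in wild-type tumors, H2-Q6 3.79-fold, H2-Q7 2.86-fold, H2-T10 2.40-fold and H2-Q4 2.29-fold, and none was lower. Among all 14746 genes tested 0.57% were called higher (84 genes) and 0.142% lower (21 genes). The other 5 tested members had positive differences that did not pass, and H2-T24 was under the mean of 5 normalized counts needed for the test. The median log2 difference of the 9 was 0.79, beside 0.01 over all genes.

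H2-Q7, a Qa-2 gene, had 717, 632 and 658 normalized counts in the tumors labelled RAG1-/- of day 13 and 720.0, 1087 and 1338 in those of day 23. In wild-type tumors it had 2019, 2723 and 2909 at day 23 and 1993, 1854 and 2886 at day 46. The lowest wild-type tumor stood above the highest tumor labelled RAG1-/-, as it did for 0.651% of the genes tested. The log2 difference was 1.51 (SE 0.16, 95% interval 1.18 to 1.85, limma adjusted p = 0.000207), and a two-sided exact permutation test of the means gave p = 0.00216, the smallest that 6 against 6 allows.

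H2-Q6, the neighbouring Qa-2 gene, spread more widely. It had 209, 351 and 267 normalized counts in tumors labelled RAG1-/- of day 13, 313, 577 and 970.4 at day 23, then 839, 1513 and 1443 at day 23 in wild-type hosts and 1216, 1632 and 2843 at day 46. The groups overlapped by 1 tumor on each side, wild-type day 23 replicate 1 lying below RAG1-/- day 23 replicate 3. The log2 difference was 1.92 (SE 0.26, limma adjusted p = 0.00221, exact permutation p = 0.00433).

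H2-T10 had 158, 111 and 117 normalized counts at day 13 and 82.5, 147 and 127 at day 23 in tumors labelled RAG1-/-. Wild-type tumors had 355, 289 and 379 at day 23 and 219.9, 203 and 362 at day 46. The groups did not overlap, and the log2 difference was 1.26 (SE 0.19, limma adjusted p = 0.00543, exact permutation p = 0.00216). Its near-identical partner H2-T22 had 397 to 869 in tumors labelled RAG1-/- and 636 to 1532 in wild-type tumors, with overlap, and the difference of 0.79 (SE 0.20) missed the threshold (limma adjusted p = 0.0970). Summed, the pair differed by 0.88 (limma adjusted p = 0.0451), and the summed H2-Q6 and H2-Q7 by 1.66.

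H2-Q4, another gene of the Q region, had 101 to 127 normalized counts at day 13 and 127, 187 and 350.0 at day 23 in tumors labelled RAG1-/-. In wild-type tumors it had 398, 265 and 440.5 at day 23 and 245, 271 and 593 at day 46, so RAG1-/- day 23 replicate 3 overlapped the wild-type range. Its difference of 1.20 (SE 0.26, limma adjusted p = 0.0434) was the weakest of the 4 calls. It was lost with edgeR (adjusted p = 0.0540), with a pseudocount of 0.1 (0.0533), without a filter (0.0750), after rescaling to the same total (0.0688) and in 9 of the 12 fits that leave out 1 tumor. H2-Q6, H2-Q7 and H2-T10 passed in all 12 of those fits.

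The other members were not called. H2-T23 (Qa-1) had 26.2 to 108 normalized counts in tumors labelled RAG1-/- and 40.1 to 178 in wild-type tumors, a log2 difference of 0.43 (95% interval -0.32 to 1.19). H2-M3 had 70.7 to 174 against 81.1 to 199.6 (0.26, interval -0.23 to 0.74). Cd1d1 had 11.8 to 33.6 against 12.7 to 50.2 (0.73, interval 0.0044 to 1.45), and Mr1 had 19.3 to 81.3 against 56.8 to 84.0 (0.71, interval 0.07 to 1.35). None of these 4 passed (limma adjusted p = 0.369 to 0.726), but the intervals of Cd1d1 and Mr1 reach above the differences of H2-Q4 and H2-T10. In the permutation tests of single members Mr1 gave p = 0.0455, H2-T22 0.0281 and Cd1d1 0.0649, all exact, two-sided and unadjusted over the 10 members. H2-T24 stood at 0 to 6.67 in tumors labelled RAG1-/- and 0 to 6.28 in wild-type tumors, near the floor.

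**Figure D2:**
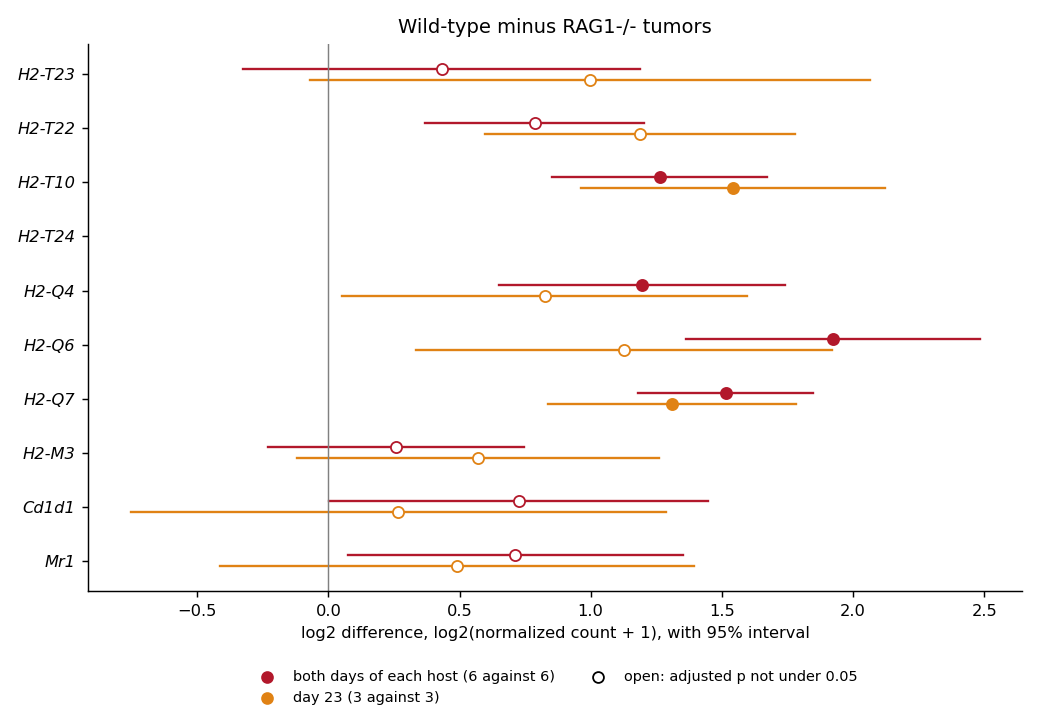
Log2 difference (wild-type minus tumors labelled RAG1-/-) of each member on the log2(normalized count + 1) scale, with its 95% interval, over both days (6 against 6) and at day 23 (3 against 3). Filled points have a limma adjusted p under 0.05. The 9 tested members lie to the right of 0, and H2-Q7 and H2-T10 are filled at both settings; H2-T24 was not tested.

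At day 23, the only day the hosts share, 2 of 9 members were called higher, against 0.231% of all genes (34 of 14746), and none was lower, against 0.0475%. H2-T10 was 2.91-fold higher in wild-type tumors (log2 difference 1.54, SE 0.27, limma adjusted p = 0.0289) and H2-Q7 2.48-fold (1.31, SE 0.22, adjusted p = 0.0227). Each was lost when near-identical copies were summed. These 6 tumors are part of the comparison above. For both genes the 3 wild-type tumors lay above the 3 labelled RAG1-/-, as for 8.5% of the genes tested. H2-T22 was 2.28-fold higher but missed the threshold (adjusted p = 0.0979), and so did H2-Q6 (1.13, adjusted p = 0.256) and H2-Q4 (0.82, adjusted p = 0.418). The count of 2 fell to 0 without RAG1-/- day 23 replicate 1 or 2 or wild-type day 23 replicate 2 or 3, to 1 without wild-type day 23 replicate 1, and rose to 3 without RAG1-/- day 23 replicate 3.

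Between the sampling days of one host no member was called. From day 23 to day 46 in wild-type tumors limma called 0 of 9 members and 0.0% of all genes, with 1 member and 1261 genes at an unadjusted p under 0.05 (edgeR called 0 members and 0.0% of genes, DESeq2 0 members and 0.292%). That member was H2-T22, with means of 1398 ± 189 (SD, n = 3) and 889 ± 366 (SD, n = 3). Cd1d1 had 32.5, 22.2 and 12.7 normalized counts at day 23 and 35.2, 42.3 and 50.2 at day 46, without overlap (as for 7.02% of genes), a difference of 0.97 (SE 0.48, limma adjusted p = 0.602). From day 13 to day 23 in tumors labelled RAG1-/- limma again called 0 of 9 members and 0.0% of genes, with 3 members and 1722 genes at an unadjusted p under 0.05 (edgeR 0 members and 0.0% of genes, DESeq2 0 members and 1.4%). These were H2-Q6 (1.05, SE 0.37), H2-Q7 (0.60, SE 0.22) and H2-Q4 (0.82, SE 0.36), the 3 members of the Q region. The difference between the hosts of the change from the earlier to the later day, a contrast added after the data were seen and over unlike days, called no member either (limma adjusted p = 0.531 to 0.898).

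Because H2-T10 and H2-T22 are read side by side, the share of H2-T10 in their summed reads was followed as a measure free of library scaling, a choice made after the values were seen. It was 12.8% to 18.3% in the 6 tumors labelled RAG1-/- and 19.3% to 25.7% in the 6 wild-type tumors, without overlap. The means were 16.3% ± 2.01 (SD, n = 6) and 21.3% ± 2.39 (SD, n = 6), and the two-sided exact permutation p was 0.00216, the smallest this size allows. H2-T10 had already separated the hosts where H2-T22 overlapped, so this p is a description and not an independent test. How many other gene pairs separate the hosts in this way was not tested. Within wild-type tumors the share was 19.3%, 19.6% and 19.8% at day 23 and 25.7%, 21.9% and 21.7% at day 46. Skin had 8.73% and 8.72%, and MC38 cells had 15.9% (exact Clopper-Pearson 95% interval 11.8% to 20.8%, 276 reads) and 22.1% (17.3% to 27.6%, 267 reads). The share of H2-Q6 in H2-Q6 and H2-Q7 was 22.5% to 42.0% in tumors labelled RAG1-/- and 29.4% to 49.6% in wild-type tumors (exact permutation p = 0.162), and was 37.9%, 46.8% and 49.6% at day 46. How reads of the shared stretches were placed was not tested.

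**Figure D3:**
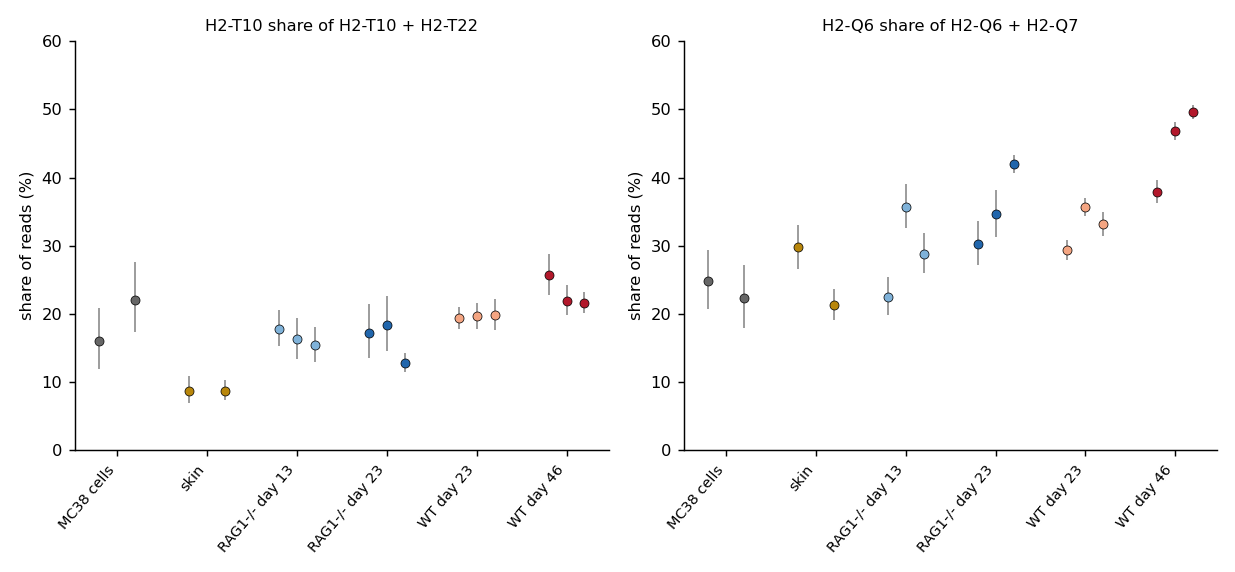
Share of reads (%) of H2-T10 in H2-T10 and H2-T22 (left) and of H2-Q6 in H2-Q6 and H2-Q7 (right) per library, with exact 95% binomial intervals that cover counting error only. In the left panel the 6 wild-type (WT) tumors (19.3% to 25.7%) lie above the 6 tumors labelled RAG1-/- (12.8% to 18.3%) and both skin libraries lie near 8.7%.

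Among the genes that build and load class I molecules some were called in the same comparison. Of 13 partner and peptide-loading genes, all tested, 6 were higher in wild-type tumors over both days and none was lower, with a median log2 difference of 0.64. Beta-2-microglobulin (B2m), the shared light chain, rose 1.77-fold (limma adjusted p = 0.0124), from 27619 to 69753 normalized counts in tumors labelled RAG1-/- to 63953 to 81701 in wild-type tumors. The classical genes H2-K1 and H2-D1 were 2.16-fold and 1.98-fold higher. Psmb9, an immunoproteasome subunit, was 2.82-fold higher, Tap1, a chain of the peptide transporter, 1.90-fold, and Tapbpl, a peptide editor, 1.73-fold. Psmb8 (0.57, limma adjusted p = 0.320) and Tap2 (0.26, adjusted p = 0.701), their partners in the same complexes, were not called. The B2m call was lost without a filter (adjusted p = 0.0721), and the Tapbpl call passed in 8 of the 12 fits that leave out 1 tumor. At day 23 only Psmb9 (3.04-fold, limma adjusted p = 0.0198) and Tapbpl (2.20-fold, adjusted p = 0.0406) of the 13 were called, and none was lower. At that day B2m was 1.42-fold higher (adjusted p = 0.3804), H2-K1 1.77-fold (0.128), H2-D1 1.98-fold (0.0598) and Tap1 2.08-fold (0.0649). Tap2 was 2.56-fold (0.0851) and Psmb8 2.11-fold (0.175) higher there, so that both had larger differences than over both days. From day 13 to day 23 in tumors labelled RAG1-/- B2m differed by 0.76 (adjusted p = 0.208) and H2-K1 by 0.84 (0.176), and from day 23 to day 46 in wild-type tumors Tap2 differed by -1.32 (0.385).

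Of 12 interferon and class I regulators, 1 was higher in wild-type tumors over both days and none was lower, with a median log2 difference of 0.41. Nlrc5, the class I transactivator, was 3.02-fold higher (51.1 to 103 against 167 to 253 normalized counts, limma adjusted p = 0.000514). Irf1, an interferon-induced transcription factor, was called at day 23 (2.10-fold, adjusted p = 0.0438) but not over both days (0.63, adjusted p = 0.0663). Ifng itself had at most 5.24 normalized counts in tumors labelled RAG1-/- and 1.26 to 22.9 in wild-type tumors. Of the 7 genes for lipid loading of CD1d none was called.

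Of the receptors and cells that read these molecules 13 of 14 were listed, 8 were tested and 4 were higher in wild-type tumors: Cd8a, Cd8b1, Trac and Klrc1. Klrc1, which encodes the NKG2A chain of the Qa-1 receptor, had 0 to 4.86 normalized counts in tumors labelled RAG1-/- and 7.82 to 46.5 in wild-type tumors, while its partner chain Klrd1 (CD94) had 8.90 to 31.0 and 5.86 to 62.0 and was not called. Cd8b1 and Trac had no read in the 6 tumors labelled RAG1-/-. Their means over the wild-type tumors were 19.5 and 18.0 normalized counts. Against the mean floor of 3 reads in the tumors labelled RAG1-/- (3.51), these means gave lower bounds of 5.57-fold and 5.13-fold. The median log2 difference of the list was 2.41, or 2.07 with these genes at their bounds. Marker lists of other cells were summed in the same tumors, without a test. All 7 T cell markers had reads in wild-type tumors (summed level 58.8 to 209) and 4 of 7 in tumors labelled RAG1-/- (2.22 to 19.1, with Cd3e, Cd3g and Trac at 0). The 6 macrophage markers summed to 6457 to 10904 in tumors labelled RAG1-/- and 8702 to 15310 in wild-type tumors, and the 5 dendritic cell markers to 357 to 656 and 550.0 to 1201. The 4 B cell markers summed to 0 to 3.98 and 63.4 to 289.8, without overlap, and the 4 NK cell markers to 103 to 174 and 114 to 181, with overlap. MC38 cells alone had a sum of 190 and 235 for the NK cell list, all from Eomes, with Ncr1, Klrb1c and Klrk1 at 0. The NK cell sums therefore do not measure NK cells alone, and their overlap does not show like NK cell content. Ptprc (517 to 875 and 536 to 916), the 4 fibroblast markers (12846 to 33522 and 17873 to 34679) and the 3 endothelial markers (299.8 to 699 and 316 to 841) overlapped too. Their part in the differences of the members was not tested.

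**Figure D4:**
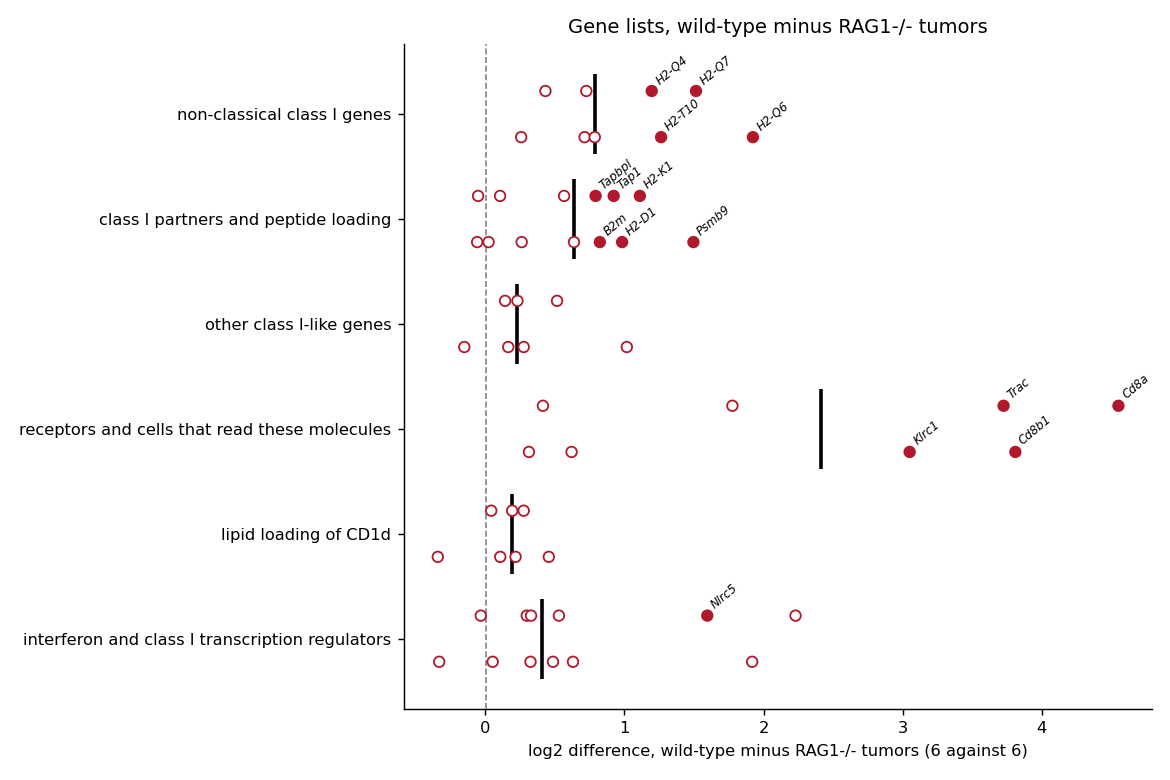
Log2 difference (wild-type minus tumors labelled RAG1-/-, 6 against 6) of each tested gene in 6 lists, with the vertical position inside a list carrying no meaning. Filled points, named, have a limma adjusted p under 0.05, black bars are list medians and the dashed line is the median of all genes, 0.01. Called genes lie on the right side only in each list that has any. These are the non-classical genes (4 of 9), partners (6 of 13), receptors (4 of 8) and regulators (1 of 12). Cd8b1 and Trac had no read in tumors labelled RAG1-/-, so their positions depend on the pseudocount.

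Genes outside the group that varied most like each member over the 12 tumors were taken by Pearson's r on log2(normalized count + 1) among 10525 genes with a mean of at least 50. The points share host, day and library, so r is a description. For H2-Q7 they were H2-D1 (0.98), Nlrc5 (0.97) and Sp140 (0.94). For H2-T10 they were Tap1 (0.97) and the interferon-inducible GTPases Iigp1 (0.96) and Igtp (0.95), and for H2-T22 Vwa5a (0.96), AW112010 (0.94) and Gbp2 (0.93). H2-Q6 went with Tecpr1, Prnp and Ly6e (0.93 each) and H2-Q4 with Ypel3 (0.94), Timp2 (0.93) and Gbp4 (0.92). H2-T23 went with Zdhhc5 (0.94), Cd48 (0.93) and Sirpa (0.90), the last pair leukocyte surface genes, and H2-M3 with Aamdc (0.93), Vwa5a (0.89) and Smim14 (0.87). The closest genes of Cd1d1 were Atf6 (0.89), Slc9a9 (0.88) and Pcnx (0.88), of Mr1 Fxyd5 (0.89), Dgcr14 (0.88) and Tmem42 (0.87), and of H2-T24, near its floor, Rxrb (0.89), Cd3eap (0.89) and Elp6 (0.88). Among the members, H2-Q6 and H2-Q7 (0.94), H2-Q4 and H2-Q7 (0.91), H2-T22 and H2-T10 (0.91) and H2-T10 and H2-Q7 (0.90) varied most alike, whereas H2-T23 had r of 0.23 to 0.31 with the 3 Q region genes and 0.75 with H2-M3.

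The second question was how tumors compare with the cells they grew from. Against MC38 cells, 8 of 9 members were higher in tumors labelled RAG1-/- (15.8% of 14708 genes were called higher) and 8 of 9 in wild-type tumors (18.3%), and in both Mr1 was the member not called. No member was lower, where 7.55% and 9.61% of genes were. Rescaling to the same upper quartile moved the median of all genes from 0.06 to 0.16 and from 0.05 to 0.21. It changed the genes higher and lower from 2317 and 1111 to 2438 and 600 in tumors labelled RAG1-/- and from 2687 and 1413 to 3087 and 621 in wild-type tumors, with 8 members called in each. Both comparisons use the same 2 MC38 libraries. H2-Q6 had 85.6 and 70.4 normalized counts in MC38 cells and was 4.95-fold higher in tumors labelled RAG1-/- (limma adjusted p = 8.83e-05) and 18.8-fold higher in wild-type tumors (adjusted p = 4.16e-08). H2-Q7 had 259 and 245 and was 3.26-fold and 9.30-fold higher, and H2-Q4 had 54.8 and 32.3 and was 3.56-fold and 8.15-fold higher.

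H2-T10 had 37.6 and 57.7 normalized counts in MC38 cells and rose 2.57-fold in tumors labelled RAG1-/- and 6.16-fold in wild-type ones. H2-T22 had 199 and 203 and was 3.11-fold and 5.37-fold higher, and H2-T23 had 22.2 and 20.5 and was 3.25-fold and 4.38-fold higher. H2-M3 had 38.5 and 39.1 and was 3.05-fold and 3.65-fold higher. Cd1d1 had 6.84 and 2.93, at or near the floor of 3 reads (2.57 and 2.93), and was 3.35-fold and 5.54-fold higher on the log2(normalized count + 1) scale. For these 8 members every tumor of either host lay above both MC38 libraries, as for 16.1% of genes. Mr1 had 41.9 and 52.8 in MC38 cells, inside the range of tumors labelled RAG1-/- (log2 difference -0.18, SE 0.41) and below the 6 wild-type tumors (0.54, SE 0.41, limma adjusted p = 0.365). Without MC38 replicate 2 the count in tumors labelled RAG1-/- fell from 8 to 5. Ptprc, the common leukocyte gene, stood at 0 and 0.98 normalized counts in MC38 cells and 517 to 916 in the tumors, and the 6 macrophage markers summed to 36.8 and 48.9 in MC38 cells (Adgre1 at 0) and 6457 to 15310 in the tumors. Their part in these differences was not tested.

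**Figure D5:**
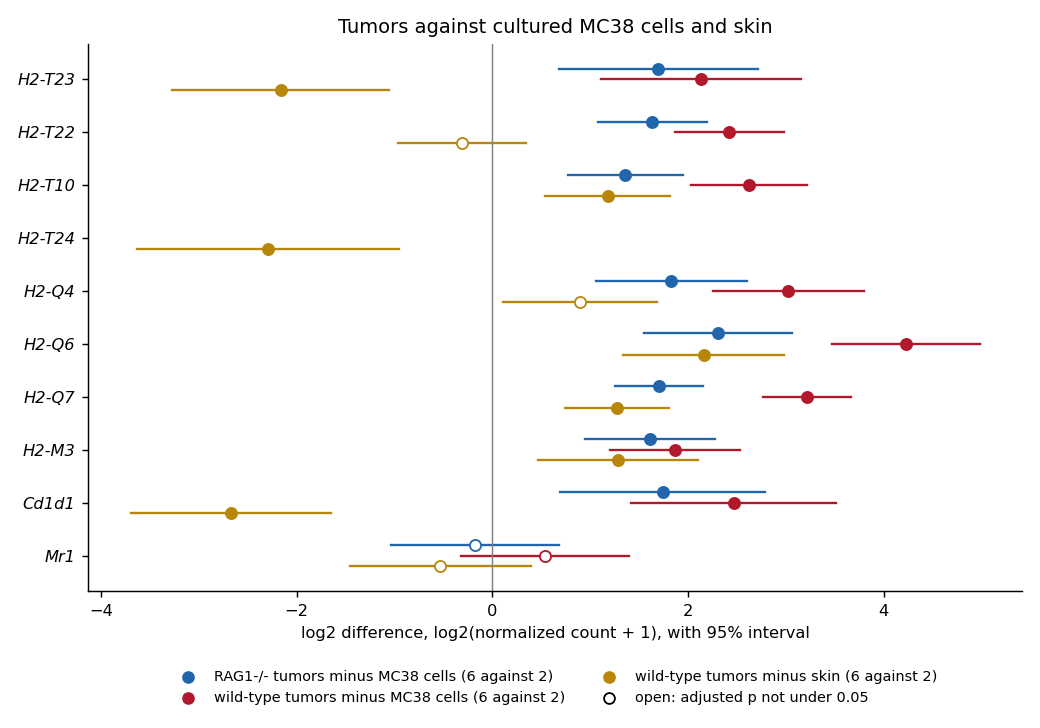
Log2 difference of each member, on the log2(normalized count + 1) scale with its 95% interval, for tumors labelled RAG1-/- and wild-type tumors against MC38 cells and for wild-type tumors against skin (6 against 2 each). Filled points have a limma adjusted p under 0.05. Against MC38 cells 8 members are higher in both hosts and Mr1 is not called, whereas against skin members lie on both sides of 0, from Cd1d1 (-2.67) to H2-Q6 (2.16).

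Against normal skin the members split. In wild-type tumors 4 of 10 were higher (22.8% of 16259 genes) and 3 lower (34.2%). H2-Q6 was 4.47-fold higher than in skin (317 and 342 normalized counts, limma adjusted p = 0.000239), H2-M3 2.44-fold (37.5 and 90.5, adjusted p = 0.00996), H2-Q7 2.42-fold (749 and 1261, adjusted p = 0.000531) and H2-T10 2.27-fold (96.4 and 171, adjusted p = 0.00364). Cd1d1 had 276 and 138 in skin and was 6.37-fold lower in wild-type tumors (adjusted p = 0.000265), H2-T23 had 347 and 551 and was 4.47-fold lower (adjusted p = 0.00252), and H2-T24 had 12.1 and 19.1 and was 4.90-fold lower on this scale (adjusted p = 0.00609). In wild-type tumors H2-T24 stood near the floor, at 0 to 6.28. Its log2 difference ran from -3.07 to -1.41 over 7 alternatives, and 6 of them kept the call. H2-Q4 (0.90, adjusted p = 0.0504), H2-T22 (-0.31) and Mr1 (-0.53) were not called. When H2-T10 and H2-T22 were summed, the difference was -0.09, so the H2-T10 call does not hold for the pair. The median of all genes was -0.18, and it moved to 0.23 when libraries were rescaled to the same total, which called 5504 genes higher and 4043 lower instead of 3708 and 5554, and with an upper quartile rescaling 4391 and 4544 (median 0.03). Each of the 3 scalings called 7 members, but H2-T24 was tested in the first only and H2-Q4 was called in the other two. H2-Q4 passed in 7 of its 10 alternatives. Without skin replicate 1, 4 of 9 tested members were called. H2-M3, whose groups overlap, then differed by 0.67 and H2-T10 by 0.77, and both lost their calls, while H2-T24 was not tested. H2-T23 lost its call without skin replicate 2 (-1.83). Keratinocyte genes summed to 245943 and 262949 in skin and 227 to 1621 in wild-type tumors, and their part was not tested.

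In MC38 cells 9 of 10 members were lower than in skin, where 41.2% of 16780 genes were called lower and 20.8% higher, and none was higher. The median log2 difference of the members was -2.10, beside -0.40 over all genes, which shifted to 0.03 when libraries were rescaled to the same total (5004 genes higher and 5680 lower instead of 3482 and 6920). Cd1d1 was 35.3-fold lower on the log2(normalized count + 1) scale (limma adjusted p = 0.00136), H2-T23 19.6-fold (adjusted p = 0.000456) and H2-T22 6.66-fold (adjusted p = 0.00142). In MC38 cells Cd1d1 had 8 and 3 reads, at or near the floor. Its log2 difference ran from -5.41 to -4.37 over 9 alternatives. H2-T24 had no read in MC38 cells and was at least 5.67-fold higher in skin, against a floor of 3 reads per library. The Q region genes were 3.84-fold (H2-Q7), 4.20-fold (H2-Q6) and 4.38-fold (H2-Q4) lower, H2-T10 2.72-fold and Mr1 2.09-fold (adjusted p = 0.0370). H2-M3, with 38.5 and 39.1 against 37.5 and 90.5, was not called. After rescaling to the same total 7 members were called, H2-T10 and Mr1 no longer among them, and without skin replicate 1 or 2 the count was 5 or 4. Of the 4 fits that leave out 1 library, Mr1 passed in 0, H2-T10 in 1, and H2-Q4 and Cd1d1 in 2 each. Skin replicate 2 was the higher of the 2 skin libraries for 7 of the 10 members.

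By group means, 9 of 10 members were lowest in MC38 cells, 6 were highest in wild-type tumors of either day and 4 in skin. H2-T22, counted here under wild-type tumors, was level in wild-type day 23 (1398.3) and skin (1397.99), with overlap. For H2-Q7 the order was wild-type day 23 (2550.5 ± 469, SD, n = 3), wild-type day 46 (2244 ± 559.9, n = 3), RAG1-/- day 23 (1048 ± 311, n = 3), skin (1005 ± 362, n = 2), RAG1-/- day 13 (669 ± 43.6, n = 3) and MC38 cells (252 ± 9.81, n = 2). Neighbours overlapped within the first pair and between RAG1-/- day 23 and skin. H2-Q6 ran in the order wild-type day 46, wild-type day 23, RAG1-/- day 23, skin, RAG1-/- day 13 and MC38 cells, with overlap at each step except the last. H2-Q4 had the same order, without overlap between skin and RAG1-/- day 13 as well. H2-T22 and H2-T10 both began with wild-type day 23 and ended with RAG1-/- day 13, RAG1-/- day 23 and MC38 cells, but skin (1398 ± 551, n = 2) stood ahead of wild-type day 46 for H2-T22 and behind it for H2-T10 (134 ± 52.6, n = 2). Skin led for H2-T23, Cd1d1, H2-T24 and Mr1 without overlap with the next group, although for Mr1 by only 84.1 against 84.0. The share of all genes with such gaps between neighbouring groups was not counted, so these gaps describe the order only. Cd1d1 went from skin (207 ± 97.8, n = 2) to wild-type day 46 (42.6 ± 7.52, n = 3), with the other tumor groups overlapping at 18.1 to 22.4, and MC38 cells at 4.89 ± 2.77 (n = 2). For H2-M3 the means of RAG1-/- day 13, RAG1-/- day 23 and wild-type day 46 lay between 124 and 125 and overlapped.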

How the data were processed

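RNA of 16 libraries, made by 3' tag sequencing (QuantSeq), was analysed from a deposited table of normalized counts. According to the study's methods, the authors trimmed reads with cutadapt and Trimmomatic (reads under 22 nucleotides removed), aligned them to mm10 with STAR and then Bowtie2, retained only the primary hit of any read that fits several places, discarded ribosomal RNA, counted with HTSeq and normalized with DESeq2. Tool versions, annotation and the strand setting of the counting are not given in the sources used here. The deposited signal is therefore reads divided by a size factor per library, and every value came out as whole reads within 0.01 (100% of values). The planned test was kept for this unit. A further table of the series had 6 columns that matched no sample label and was not used, so 16 of 22 samples entered.

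Genes averaging 5 or more normalized counts were tested with limma 3.58.1 (R 4.3.3; trended variance, two-sided, Benjamini-Hochberg over all genes tested, threshold 0.05) on log2(normalized count + 1). This scale understates the change of low genes. Host and day contrasts were fitted on the 12 tumors, contrasts with MC38 cells or skin on the tumors and those 2 libraries, and MC38 against skin on 4 libraries. Single members were also compared with exact permutation tests (SciPy 1.17.1). edgeR 4.0.16 and DESeq2 1.42.0 on recovered reads, other pseudocounts (0.1 and 5), filters (none and 20) and scalings, summed copies, a replicate block and leaving out each library were alternatives. The limma script was tested on simulated data. All 10 members are named in each comparison, list genes when called or needed beside a member, and the 3 genes most alike for each member. The members and lists were chosen with earlier results of these data known. The labels do not say that the replicates of MC38 cells came from separate cultures, so the spread between these 2 libraries may be technical. In contrasts with MC38 cells the p-values rest on a spread pooled over all libraries of the fit. These include the 12 tumors or, for MC38 against skin, the 2 skin libraries. H2-T10 was compared with H2-T22 as uncertain copies, and Lilrb4 was not analysed here. The list of regulators leaves out 1 gene that is not reported here.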

Additional observations from a re-analysis of the deposited data

How the results depend on the processing

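Leaving out each library in turn gave 3 to 5 called members for wild-type against RAG1-/- tumors over both days, 0 to 3 at day 23, 0 between the days of either host, 5 to 8 for RAG1-/- tumors and 7 to 8 for wild-type tumors against MC38 cells, 4 to 8 for wild-type tumors against skin and 4 to 8 for MC38 cells against skin. In the other alternatives these counts were 3 to 5, 2 to 3, 0, 7 to 8, 8, 6 to 8 and 7 to 9. Summed copies were not part of these counts, and with them both calls at day 23 were lost (limma adjusted p = 0.0695 for either pair). H2-Q6, H2-Q7 and H2-T10 kept their calls over both days in all of these fits, summed copies included, and H2-T22 was also called with DESeq2 (adjusted p = 0.0111). Genes called numbered 105 with limma, 111 with edgeR and 285 with DESeq2 over both days, 41, 22 and 239 at day 23, and 0, 0 and 43 (wild-type) and 0, 0 and 206 (RAG1-/-) between days. Over single results, 780 of 812 values from other alternatives kept direction and side of the threshold, and 547 of 614 with a library left out (42 weaker, 5 stronger, 20 reversed).

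Signs reversed as follows. For wild-type day 46 minus day 23, H2-Q4 became 0.024 with upper quartile scaling, 0.0094 with edgeR and 0.0050 with DESeq2, Mr1 0.062 with upper quartile scaling and H2-Q7 0.094 with summed copies. For RAG1-/- day 23 minus day 13, Cd1d1 became 0.17 with edgeR and 0.19 with DESeq2. Against skin in wild-type tumors, H2-T22 became 0.087 after total rescaling and H2-T10, called at 1.18 on its own, -0.095 with summed copies. With a library left out, reversed differences ranged from -0.037 to 0.73 for Cd1d1 between hosts at day 23, from -0.68 to 0.22 (H2-T23), -0.48 to 0.16 (H2-Q4) and -0.18 to 0.094 (Mr1) for day 46 minus day 23, from -0.34 to 0.22 (H2-T22), -0.31 to 0.10 (H2-T10), -0.38 to 0.27 (H2-M3) and -0.52 to 0.20 (Cd1d1) for day 23 minus day 13, from -0.36 to 0.029 for Mr1 in RAG1-/- tumors against MC38 cells, -0.72 to 0.10 for H2-T22 in wild-type tumors against skin and -1.20 to 0.048 for H2-M3 in MC38 cells against skin. The cause was not tested.

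With a replicate block the counts stayed at 4 (both days), 2 (day 23), 0 and 0 (between days), 8 and 8 (against MC38 cells), 7 (wild-type against skin) and 9 (MC38 against skin). Same-numbered tumors correlated at -0.22 to 0.19, 4 of 18 pairs over 0.1, and 13 of 36 comparisons were best with their own number. The pairs of RAG1-/- day 23 with wild-type day 46 were all over 0.1 (0.11 to 0.18), but no other 2 groups had all pairs over 0.1, and the numbers were not taken to pair the samples. Depth limits H2-T24 and, in MC38 cells, Cd1d1, where values lie near 3 reads.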

Other observations

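Of 23 other class I-like genes 20 were listed. None of the 7 tested was called between hosts over both days (limma, median log2 difference 0.23, 6 of 7 positive), H2-Q5 being 2.02-fold higher in wild-type tumors at an adjusted p of 0.209. A difference from the members was not tested. Against MC38 cells, Fcgrt, the neonatal Fc receptor, was higher in tumors of either label, with log2 differences of 2.00 (RAG1-/-) and 2.27 (wild-type; limma adjusted p = 8.30e-05 and 1.75e-05), and Hfe, a regulator of iron uptake, was 2.49-fold and 2.79-fold higher. H2-Q5, a further Q region gene, was 3.55-fold and 7.18-fold higher. Procr, the endothelial protein C receptor, went the other way, with 1035 and 1123 normalized counts in MC38 cells against 203 to 357 in tumors labelled RAG1-/- and 218 to 423 in wild-type tumors (log2 differences -2.00 and -1.77).

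Ligands of the activating receptor NKG2D separated skin from the cell line. Raet1e had 1.34 and 11.5 normalized counts in skin, 50.5 and 71.4 in MC38 cells and 40.8 to 200 in wild-type tumors, and Ulbp1 had 1 read in each skin library, 27.4 and 28.2 in MC38 cells and 14.7 to 67.2 in wild-type tumors. H60c, a skin-restricted ligand, had 567 and 691 in skin, no read in MC38 cells or in the 6 tumors labelled RAG1-/-, and 0 to 3.41 in wild-type tumors. It was at least 229-fold higher in skin than in MC38 cells. H2-M2 had 100.5 and 103 in skin, no read in MC38 cells and 0 to 8.79 in wild-type tumors.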
